A study of Oryza sativa with 9 samples.

Results

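Expression in young panicles of the rice line *osmads58* dSpm was compared with that of the wild type across all genes of the deposited count table. The comparison took every sample labelled with one of these genotypes, which were 4 *osmads58* dSpm samples and 3 wild-type samples, or 7 of the 9 samples of the series. *osmads58* dSpm carries a dSpm transposon in the second intron of OsMADS58 and was fertile, and the wild type was the cultivar Nipponbare. The other 2 samples came from *osmads58* CRISPR, a sterile frameshift knockout of the same gene made in independent transgenic lines, each a pool of several panicles and plants, and their levels are given here only to place those of *osmads58* dSpm. All panicles were labelled as 1 cm long, no group received a treatment, and the sources do not say which plants grew in the field and which in a growth chamber. Replicates were named as in the labels, with numbers from 1 to 3 for the wild type, 1, 2, 4b and 5b for *osmads58* dSpm, and 1 and 2 for *osmads58* CRISPR.

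OsMADS58 belongs to the C class of MADS proteins, transcription factors that specify stamens and carpels in the inner whorls of the flower. In a rice panicle of this length the stamens are young, their germ cells prepare for or enter meiosis, and the anther wall layers form around them. A whole panicle also holds branches, glumes and other floral organs, so the RNA is a mixture, and fewer cells of a type cannot be told apart from less RNA per cell.

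The deposited values were estimated counts for 56143 genes, of which 33682 were counted in at least 1 sample and 27251 passed a filter on low counts and were tested. Counts summed to between 65192657 and 83042245 per sample. Levels are given as CPM, in which each library's counts are scaled to the same total after TMM correction. A gene was called upregulated or downregulated where edgeR's quasi-likelihood test gave a Benjamini-Hochberg adjusted p under 0.05 and the log2 fold change was over 1 in either direction. The samples formed close pairs. The counts of wild type 2 and 3 differed by 12.2 times the variance of counting alone, those of the insertion line's 4b and 5b by 14.1 times and those of both *osmads58* CRISPR samples by 15.9 times, whereas the next closest pair reached 72.7 times. If 4 counts stand for a read pair, the same ratios are 3.05, 3.52, 3.97 and 18.2. These pairs differed by more than sampling noise and were kept as separate samples, and the counts of calls with each pair averaged are given beside the results. The methods speak of separate lines, but the labels do not say whether samples of a close pair share plants or a harvest, so the p-values measure the spread between these samples, which may in part be technical.

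The disrupted gene, OsMADS58 (LOC_Os05g11414), was lower in each *osmads58* dSpm sample than in each wild-type sample. Wild type 1, 2 and 3 were at 8.38, 3.29 and 4.01 CPM. *osmads58* dSpm 1, 2, 4b and 5b were at 2.097, 0.719, 1.79 and 2.002 CPM, above both *osmads58* CRISPR samples at 0.270 and 0.471 CPM. The transcript was thus still counted in the insertion line, with 47 to 159 counts per sample, and the groups did not overlap. The fold change was 3.16-fold downward (log2 fold change -1.66, standard error 0.47), and it did not pass edgeR's test (adjusted p = 0.118). Only DESeq2 among the alternatives brought it past the threshold (adjusted p = 0.0101, range over all alternatives 0.0101 to 0.699).

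Across all tested genes, 321 (1.18%) rose and 73 (0.268%) fell past the threshold in the insertion line, together 1.45% of the genes tested. The groups of genes differed in starting level. The upregulated genes were mostly weakly expressed in the wild type, with a median of 1.73 CPM that became 9.87 CPM in *osmads58* dSpm. Of them, 38.6% had a wild-type mean under 1 CPM, against 26.7% of all tested genes, and 35 had no count in any wild-type sample. The downregulated genes started higher, with a median of 33.9 CPM in the wild type and 10.01 CPM in *osmads58* dSpm. A wild-type mean of at least 10 CPM was found for 74.0% of them, against 16.8% of the upregulated genes and 47.1% of all tested genes. Such shares describe the called genes and were not tested, since the fold change a call requires depends on the level.

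**Figure D1:**
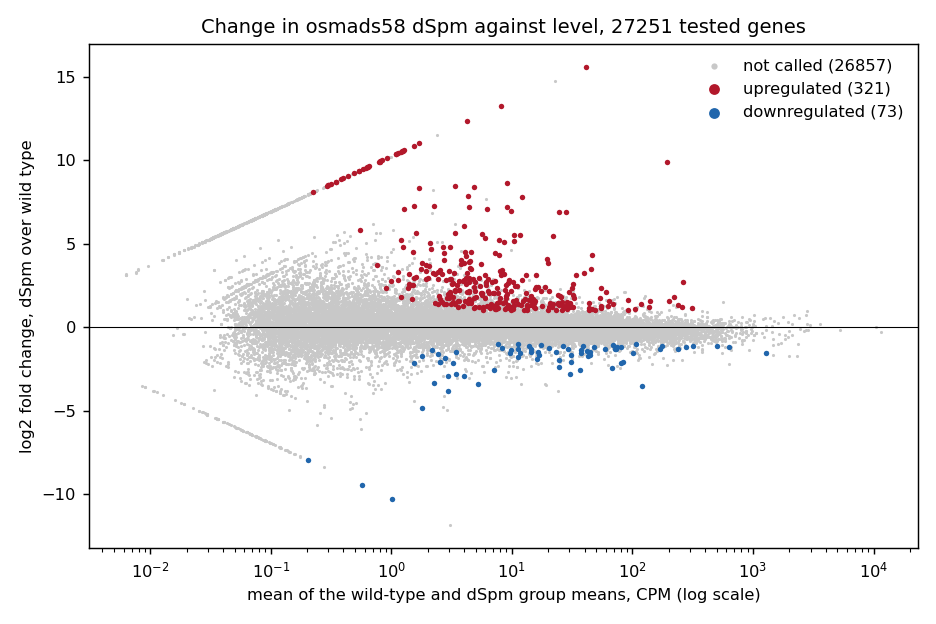
The plot shows the log2 fold change of *osmads58* dSpm over the wild type (vertical axis) against the mean of both group means in CPM (horizontal axis, log scale) for each of the 27251 tested genes as a point. The 321 upregulated genes (red) reach far above the axis and lie mostly at low levels, and the 73 downregulated genes (blue) lie mostly at higher levels.

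The changes of the upregulated genes were large and of similar size in all 4 samples. A log2 fold change over 2 was reached by 189 of the 321 genes, and a log2 fold change under -2 by 23 of the 73 downregulated genes. The median difference from the wild-type mean over the upregulated genes was 2.21, 2.43, 2.25 and 2.32 on the log2 scale in *osmads58* dSpm 1, 2, 4b and 5b. Over the downregulated genes it was -1.64, -1.18, -1.72 and -1.74. In *osmads58* CRISPR 1 and 2, measured against the same wild-type samples, the same genes stood at 0.20 and 0.39 and at -1.01 and -0.92. The genes were chosen by the values of *osmads58* dSpm, so its medians describe the choice. The number of calls depended on the samples. Leaving out wild type 1, 2 or 3 gave 198, 79 or 65 calls. Leaving out *osmads58* dSpm 1, 2, 4b or 5b gave 620, 855, 161 or 147. Called in each of these 7 fits were 49 of the upregulated and 12 of the downregulated genes, and with the close pairs averaged 6 and 1 genes passed. All 394 kept their direction, which follows from the choice, since the groups did not overlap for any called gene.

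Among called genes with a group mean of at least 10 CPM, the strongest rises were close to a switch between silent and expressed. LOC_Os03g43100, a gene on chromosome 3 that the sources used here do not annotate, had no count in any wild-type sample. It was at 99.8, 66.1, 80.7 and 80.0 CPM in *osmads58* dSpm 1, 2, 4b and 5b, and at 42.8 and 33.6 CPM in *osmads58* CRISPR. Against the 3 counts per library that a count of 0 allows, its mean was at least 2046-fold higher in *osmads58* dSpm (adjusted p = 1.8e-05). LOC_Os07g48980 on chromosome 7, also without annotation, was likewise listed without counts in all 3 wild-type samples and reached 19.2, 9.66, 21.25 and 15.3 CPM in *osmads58* dSpm, at least 410-fold higher (adjusted p = 0.00317). In *osmads58* CRISPR it had 6 and 0 counts and was lower than in *osmads58* dSpm (adjusted p of the direct comparison 0.00426). Both genes were thus on in each *osmads58* dSpm sample, and one of them was on in both mutant lines.

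Downward, LOC_Os05g49800 on chromosome 5 changed most among the called oxidation reduction genes of at least 10 CPM. Its level was 168, 244 and 248 CPM in the wild type and 15.2, 14.4, 24.3 and 22.1 CPM in *osmads58* dSpm, an 11.6-fold decrease (log2 fold change -3.53, standard error 0.23, adjusted p = 0.000352). *osmads58* CRISPR was within the wild-type range, at 203 and 201 CPM, and the lines differed in a direct comparison (adjusted p = 0.00052). LOC_Os03g37140, without annotation, fell from 77.2, 43.9 and 38.9 CPM to 8.05, 6.76, 6.84 and 8.47 CPM (log2 fold change -2.82, standard error 0.25, adjusted p = 0.00134), and *osmads58* CRISPR was as low, at 5.38 and 6.195 CPM. LOC_Os10g40720, also without annotation, fell from 12.3, 13.3 and 10.4 CPM to 1.96, 3.88, 1.55 and 0.881 CPM (log2 fold change -2.54, standard error 0.42, adjusted p = 0.0225), whereas *osmads58* CRISPR held 15.8 and 19.6 CPM (adjusted p of the direct comparison 0.00611). The calls of LOC_Os03g43100, LOC_Os07g48980 and LOC_Os05g49800 remained with the close pairs averaged. Those of LOC_Os03g37140 and LOC_Os10g40720 were lost there (adjusted p = 0.0541 and 0.310 by edgeR). The call of LOC_Os10g40720 was also lost without wild type 1, 2 or 3 or *osmads58* dSpm 4b.

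**Figure D2:**
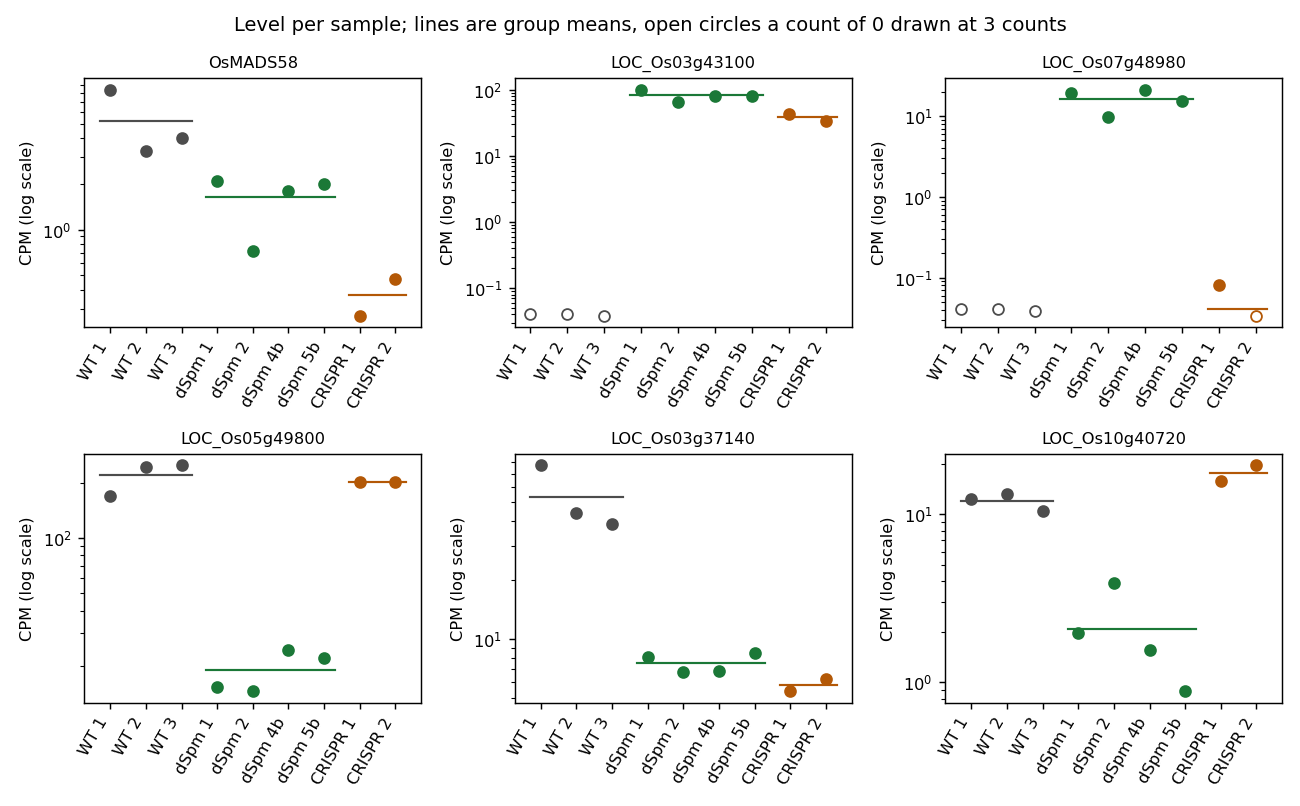
Levels in CPM (vertical axis, log scale) of OsMADS58 and 5 genes with large changes in each of the 9 samples (horizontal axis). Filled points are samples, lines are group means and open circles mark a count of 0, drawn at the level of 3 counts. In each panel the 4 *osmads58* dSpm samples (green) lie apart from the 3 wild-type samples (grey), and the *osmads58* CRISPR samples (orange) side with *osmads58* dSpm for LOC_Os03g43100 and LOC_Os03g37140 but with the wild type for LOC_Os07g48980, LOC_Os05g49800 and LOC_Os10g40720.

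Genes of oxidation and reduction moved in both directions in *osmads58* dSpm. Such genes encode enzymes that pass electrons or hydrogen between molecules, among them peroxidases, cytochrome P450 enzymes, dehydrogenases and oxygenases, and they take part in hormone metabolism, wall formation and the control of reactive oxygen. The study lists 212 of them, all of which passed the filter. Of these, 19 were upregulated and 10 downregulated, 13.7% against 1.45% of all tested genes. The study drew the list from genes called on these samples, so this share is not independent evidence. The median log2 fold change of the list was 0.16, close to the 0.06 of all tested genes, with 121 members above 0 and 91 below. All 4 *osmads58* dSpm samples lay above all wild-type samples for 44 members and below them for 37, or 20.8% and 17.5%, against 8.69% and 6.43% of all tested genes.

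Among the upregulated members, 9 reached a mean of 10 CPM. LOC_Os01g71310 was nearly silent in the wild type, at 0.165, 0.108 and 0.408 CPM, and reached 19.3, 5.78, 10.8 and 8.37 CPM in *osmads58* dSpm, a 48.2-fold rise (adjusted p = 0.00418). It stayed at 0.566 and 0.505 CPM in *osmads58* CRISPR. LOC_Os06g35520 rose from 2.47, 5.30 and 5.39 CPM to 35.2, 172, 73.5 and 72.6 CPM, a 20.2-fold rise with sample 2 the highest (adjusted p = 0.00998). In *osmads58* CRISPR it was below the wild type, at 0.175 and 0.426 CPM, so the lines lay on opposite sides of the wild type.

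A pair of genes with neighbouring identifiers on chromosome 3 behaved in the same way. LOC_Os03g55410 rose 14.1-fold, from 1.02, 0.484 and 0.701 CPM to 6.24, 9.37, 13.5 and 12.2 CPM (adjusted p = 0.00306). LOC_Os03g55420 rose 3.01-fold, from 37.6, 25.6 and 32.1 CPM to 85.5, 77.3, 102 and 117 CPM (adjusted p = 0.00850). In *osmads58* CRISPR both lay under each wild-type sample, at 0.297 and 0.224 CPM and at 6.52 and 5.01 CPM. The direct comparison of the lines gave an adjusted p of 0.00139 for the first and 0.00052 for the second.

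The other upregulated members of this level rose between 2.26-fold and 8.69-fold. LOC_Os03g09900 rose 8.69-fold, from 5.49, 2.31 and 1.99 CPM to 29.0, 44.9, 19.9 and 19.6 CPM. LOC_Os02g51080 rose 3.67-fold, LOC_Os04g57550 2.74-fold, LOC_Os08g14570 2.34-fold and LOC_Os07g34570 2.26-fold, with adjusted p from 0.0116 to 0.0316. LOC_Os07g34570 was the most highly counted of them, at 196, 197 and 181 CPM in the wild type and 489, 312, 484 and 445 CPM in *osmads58* dSpm. As an example at low level, LOC_Os03g58380 was uncounted in the wild type and reached 1.10, 1.07, 1.71 and 1.18 CPM in *osmads58* dSpm, at least 31.8-fold higher (adjusted p = 0.00998). All of the upregulated members named here lay above the wild-type range in each *osmads58* dSpm sample. So did all 321 upregulated genes, against 8.69% of all tested genes. The genes were called on these values, so this describes the choice.

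Among the downregulated members, 8 had a mean of at least 10 CPM in the wild type. After LOC_Os05g49800, LOC_Os01g56810 fell most, from 57.0, 46.4 and 48.2 CPM to 7.23, 24.7, 7.45 and 7.89 CPM (log2 fold change -2.10, standard error 0.42, adjusted p = 0.0436), with sample 2 apart from the others. LOC_Os05g48700 fell from 59.2, 69.6 and 68.1 CPM to 9.57, 28.1, 19.6 and 20.7 CPM (log2 fold change -1.75). LOC_Os05g25850, at 480, 415 and 412 CPM in the wild type, was at 224, 255, 154 and 156 CPM (log2 fold change -1.14), and LOC_Os07g48510, at 219, 255 and 240 CPM, was at 99.7, 151, 73.9 and 69.3 CPM (log2 fold change -1.27). For these 4 genes *osmads58* CRISPR was between 25.5 and 258 CPM and below each wild-type sample. LOC_Os06g46799 and LOC_Os01g11150 had log2 fold changes of -1.46 and -1.01 in *osmads58* dSpm, and of -1.50 and -1.57 in *osmads58* CRISPR against the same wild-type samples. At low level, LOC_Os03g18640 had no count in any *osmads58* dSpm sample and 0.233, 0.713 and 0.280 CPM in the wild type, at least 10.1-fold lower (adjusted p = 0.0499).

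LOC_Os10g38110 is the downregulated member for which the study designed RT-qPCR primers, printed in lower case to identify the transcript measured here.
LOC_Os10g38110 forward: cacatcctccggaccaactt
LOC_Os10g38110 reverse: tcctctgctgcttccacttg
Its level was 20.2, 17.5 and 19.7 CPM in the wild type, 10.4, 10.2, 6.68 and 8.12 CPM in *osmads58* dSpm and 5.92 and 4.96 CPM in *osmads58* CRISPR. The 3 groups did not overlap, with *osmads58* dSpm between the others (log2 fold change against the wild type -1.11, standard error 0.20, adjusted p = 0.0323). The direct difference between the mutant lines did not pass (adjusted p = 0.114). The call was lost without any wild-type sample or without *osmads58* dSpm 4b or 5b.

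**Figure D3:**
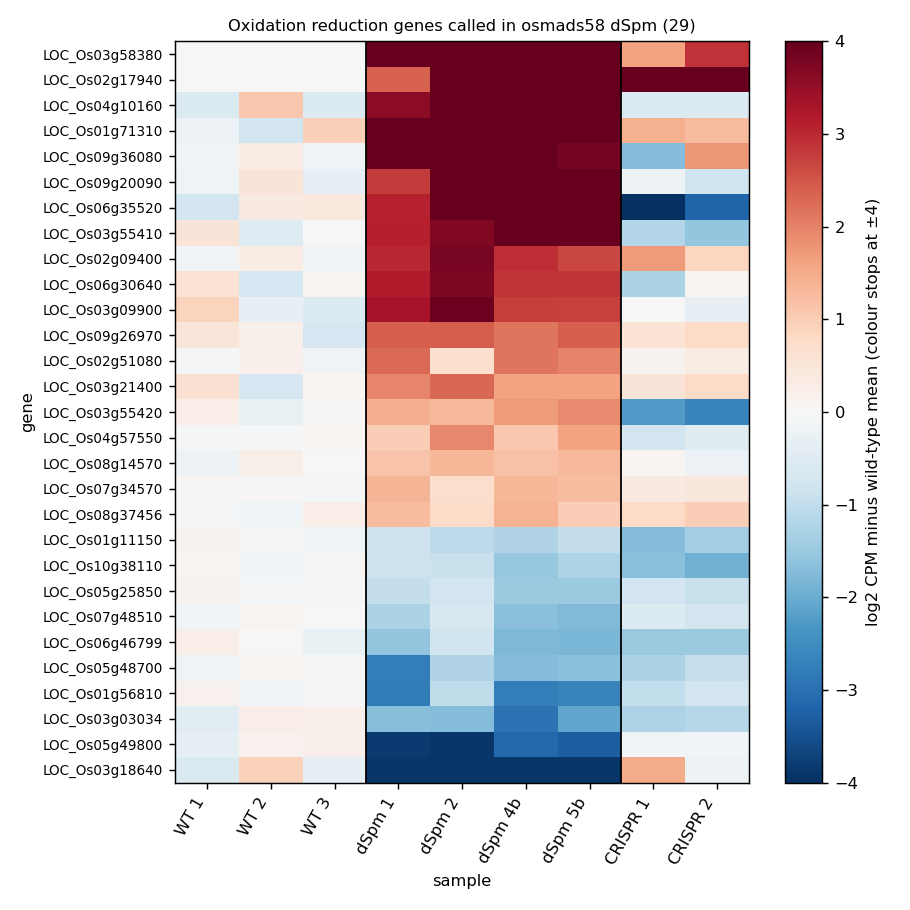
Heat map of the 29 oxidation reduction genes called in *osmads58* dSpm (rows, by fold change) in the 9 samples (columns), coloured by log2 CPM minus the wild-type mean, with the colour stopping at 4 in either direction. The 19 upregulated genes are red and the 10 downregulated genes blue in all 4 *osmads58* dSpm columns, and in the *osmads58* CRISPR columns several upregulated rows are pale or blue.

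Of the 29 called members, 26 and 28 stayed called without *osmads58* dSpm 1 and 2, but only 13 and 10 when 4b and 5b were dropped in turn. Dropping wild type 1, 2 or 3 left 14, 6 or 4, and averaging the close pairs left 1, LOC_Os05g49800. LOC_Os01g71310, LOC_Os03g55410, LOC_Os03g58380 and LOC_Os05g49800 stayed called whichever sample was left out.

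Cell cycle genes, which drive DNA replication, chromosome segregation and division, split the *osmads58* dSpm samples. The study lists 18, chosen on these samples, and all were tested. None was called by edgeR, against 1.45% of all tested genes, while DESeq2 called 2, against 1340 of 33563 genes. By edgeR 8 upward and 1 downward had an unadjusted p under 0.05, against 10% and 6.59% of all tested genes. The median log2 fold change of the list was 1.27 against 0.06 for all tested genes. It came from samples 4b and 5b, where the median difference from the wild-type mean was 2.24 and 1.90, against -0.08 and 0.26 in samples 1 and 2. The summed level of the 18 genes went the other way. It was 1040, 893 and 874 CPM in the wild type and 852, 835, 723 and 702 CPM in *osmads58* dSpm 1, 2, 4b and 5b. Both 4b and 5b lay above all wild-type samples for 14 of the 18 genes, or 77.8% against 30.5% of all tested genes, and both 1 and 2 for 2 of them, or 11.1% against 14.1%. In *osmads58* CRISPR the medians were 2.17 and 2.44, and the same number of genes, 14, lay above the wild type in both samples. The study drew the list from genes called on these samples, so the shares and medians of both lines are not independent evidence.

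The largest log2 fold change of the list was that of LOC_Os03g31880, at 0.220, 1.05 and 1.21 CPM in the wild type and 1.48, 6.24, 7.39 and 6.01 CPM in *osmads58* dSpm (2.67, standard error 0.68, adjusted p = 0.0904). Here sample 2 went with 4b and 5b. LOC_Os01g36390 was at 1.22, 2.77 and 1.90 CPM in the wild type and at 1.85, 3.79, 23.9 and 15.8 CPM in *osmads58* dSpm, so that sample 1 lay within the wild-type range (adjusted p = 0.161). LOC_Os12g37400 was at 0.968 to 1.21 CPM in the wild type and at 0.161, 2.02, 15.02 and 8.83 CPM. LOC_Os08g37390 was at 17.7 to 20.4 CPM in the wild type and above it in all 4 samples, at 24.7, 24.6, 42.5 and 36.7 CPM (log2 fold change 0.75, standard error 0.22, adjusted p = 0.130). LOC_Os02g39010 went the other way, from 289, 440 and 420 CPM to 189, 300, 177 and 204 CPM (log2 fold change -0.82, standard error 0.22, adjusted p = 0.105). With *osmads58* dSpm 4b and 5b alone against the wild type, 16 of the 18 genes were called and all 18 had an unadjusted p under 0.05, against 9.28% and 32.5% of all tested genes. With 1 and 2 alone 0 were called and 3 had an unadjusted p under 0.05, against 0.415% and 12.9%. Leaving out *osmads58* dSpm 1 gave 3 calls and leaving out 2 gave 1, against 2.29% and 3.16% of all tested genes. The fit with 4b and 5b alone rests on a close pair of samples, whose spread may in part be technical.

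The study's list of 27 meiosis genes, also chosen on these samples and sharing 5 members with the cell cycle list, had the same split in a weaker form. None was called by edgeR, against 1.45% of all tested genes, or by DESeq2, against 1340 of 33563 genes. The median log2 fold change was 0.37. By edgeR 5 upward and 1 downward had an unadjusted p under 0.05, against 10% and 6.59% of all tested genes. The median difference from the wild-type mean was -0.28 and 0.27 in *osmads58* dSpm 1 and 2, 0.76 and 0.82 in 4b and 5b, and 1.61 and 1.84 in *osmads58* CRISPR. Within the wild type it ranged from -0.51 in sample 1 to 0.22 in sample 3. The medians of both mutant lines are not independent evidence, since the study drew this list too from genes called on these samples. LOC_Os09g36740 showed the pattern, at 1.36, 3.95 and 4.57 CPM in the wild type, 2.76, 4.36, 19.7 and 13.5 CPM in *osmads58* dSpm and 31.6 and 34.7 CPM in *osmads58* CRISPR. LOC_Os04g41110 was lower in all 4 samples, at 348, 289, 226 and 216 CPM against 561, 356 and 360 CPM (log2 fold change -0.66, standard error 0.22, adjusted p = 0.178), and far lower in *osmads58* CRISPR, at 61.9 and 59.9 CPM.

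**Figure D4:**
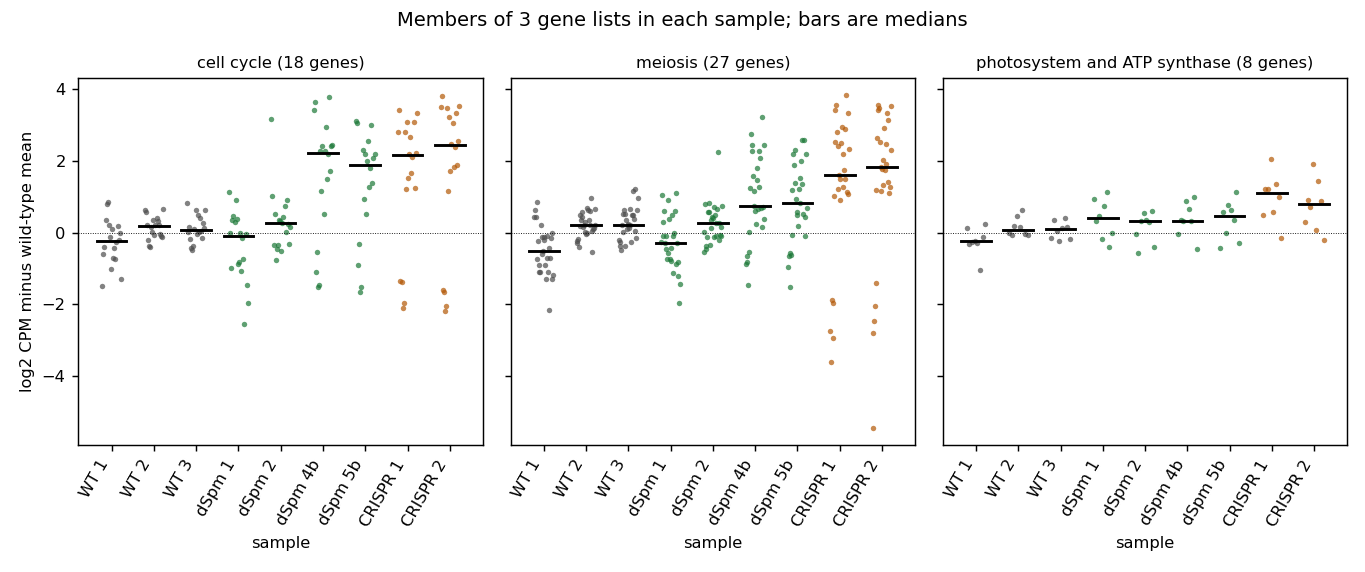
Log2 CPM minus the wild-type mean (vertical axis) of each tested member of 3 lists in the 9 samples (horizontal axis), with points for genes and bars for medians. The medians of the cell cycle list are 2.24 and 1.90 in *osmads58* dSpm 4b and 5b but -0.08 and 0.26 in 1 and 2, those of the meiosis list differ in the same order, and those of the photosystem and ATP synthase list lie between 0.32 and 0.47 in all 4.

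Meiotic genes that the study names singly were next examined. In meiosis the germ cells align homologous chromosomes, break and repair their DNA with the homologue as template, and hold the pairs together by crossovers. The 28 genes cover entry into meiosis, the chromosome axis, strand breaks, strand exchange and crossover maturation, and 3 of them are also in the meiosis list. All were tested. None was called by edgeR, against 1.45% of all tested genes, or by DESeq2, against 1340 of 33563 genes. By edgeR 0 upward and 4 downward had an unadjusted p under 0.05, against 10% and 6.59% of all tested genes. The median log2 fold change was -0.06, with 11 genes above 0 and 17 below.

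The 4 genes with an unadjusted p under 0.05 were HEI10, MSH5, RPA2B and CRC1/PCH2. HEI10, a ubiquitin ligase-like protein that marks crossover sites, was at 36.5, 23.5 and 26.7 CPM in the wild type and 20.8, 22.4, 17.1 and 15.8 CPM in *osmads58* dSpm (log2 fold change -0.60, standard error 0.20, adjusted p = 0.175). MSH5, which stabilizes crossover intermediates, was at 19.7, 23.6 and 21.0 CPM and 9.21, 17.4, 14.9 and 16.1 CPM (log2 fold change -0.58, standard error 0.22, adjusted p = 0.232). For both genes and for RPA2B the insertion line stayed under the wild-type range throughout. These were 3 of the 28 genes, 10.7% against 6.43% of all tested genes. Both *osmads58* CRISPR samples were within the wild-type range for HEI10, at 28.4 and 28.4 CPM, and under it for MSH5, at 18.4 and 18.9 CPM. CRC1/PCH2, needed for the synaptonemal complex that zips homologues together, and RPA2B, a subunit of the complex that coats single-stranded DNA, had log2 fold changes of -0.61 (adjusted p = 0.287) and -0.42 (adjusted p = 0.251). DMC1A, a recombinase of strand exchange (unadjusted p = 0.179), was at 12.2, 5.03 and 4.78 CPM in the wild type, 8.16 and 4.85 CPM in *osmads58* dSpm 1 and 2, 2.39 and 2.32 CPM in 4b and 5b, and 1.68 and 1.605 CPM in *osmads58* CRISPR.

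MEL1 and MEL2 differed between the *osmads58* dSpm samples. MEL1, an Argonaute protein of germ cells, was nearly constant in the wild type, at 122, 124 and 131 CPM. It was at 48.2 and 54.0 CPM in *osmads58* dSpm 1 and 2, but at 272 and 295 CPM in 4b and 5b, and at 46.0 and 78.7 CPM in *osmads58* CRISPR. MEL2, an RNA-binding protein that sets the time of entry into meiosis, was at 3.65, 6.96 and 6.13 CPM in the wild type, 2.42 and 1.48 CPM in *osmads58* dSpm 1 and 2, and 17.9 and 19.2 CPM in 4b and 5b. No *osmads58* dSpm sample lay within the wild-type range for either gene, on opposite sides of it, and the group means did not pass edgeR's test for a difference (adjusted p = 0.798 for MEL1 and 0.648 for MEL2).

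PAIR1, needed to form the strand breaks, and RPA2A, a paralog of RPA2B, were low in the wild type and in *osmads58* dSpm 1 and 2 and higher in the other mutant samples. PAIR1 was at 0.165, 0.188 and 0.701 CPM in the wild type, 0.228 and 0.245 CPM in *osmads58* dSpm 1 and 2, 2.87 and 1.85 CPM in 4b and 5b, and 4.42 and 2.73 CPM in *osmads58* CRISPR. RPA2A was at 0, 0.524 and 0.764 CPM in the wild type, 0.215 and 0.199 CPM in *osmads58* dSpm 1 and 2, 6.44 and 4.99 CPM in 4b and 5b, and 5.47 and 6.99 CPM in *osmads58* CRISPR. Their log2 fold changes of 1.88 (standard error 0.97, adjusted p = 0.373) and 2.78 (standard error 1.43, adjusted p = 0.369) thus rest on samples 4b and 5b. ASY1/PAIR2, a protein of the chromosome axis, was at 39.3 to 43.3 CPM in the wild type, 40.5 and 40.3 CPM in *osmads58* dSpm 1 and 2 and 61.6 and 58.2 CPM in 4b and 5b. MRE11, which trims broken DNA ends, was at 16.4 to 23.2 CPM in the wild type and at 25.2, 21.1, 31.4 and 31.4 CPM (log2 fold change 0.40, adjusted p = 0.350). Both 4b and 5b lay above all wild-type samples for 13 of the 28 genes, 46.4% against 30.5% of all tested genes. Both 1 and 2 did so for 0 of them, against 14.1% of all tested genes. Samples 1 and 2 lay below all wild-type samples for 60.7% and 53.6% of the 28 genes, against 29.5% and 26.8% of all tested genes. For 4b and 5b these shares were 17.9% and 32.1%, against 26.6% and 27.0%.

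HEI10 is an example of a low level in all 4 *osmads58* dSpm samples and MEL2 of a split between them. The study's RT-qPCR primers identify the transcripts.
HEI10 forward: gaagcgagtatgagtcggca
HEI10 reverse: caggaagaccagccaatcct
MEL2 forward: ctccaagcaactgtgaggct
MEL2 reverse: gctccatgactccagcagtg
With samples 4b and 5b alone against the wild type, MEL2 was called upward (log2 fold change 1.69, adjusted p = 0.0114), as were MEL1 (1.14, adjusted p = 0.0132), PAIR1 (2.70, adjusted p = 0.0331) and RPA2A (3.68, adjusted p = 0.0447), and DMC1A was called downward (-1.67, adjusted p = 0.0434). These 5 were all the calls among the 28 genes in that fit, in which 12 had an unadjusted p under 0.05, against 9.28% and 32.5% of all tested genes. With 1 and 2 alone 0 of the 28 were called and 7 had an unadjusted p under 0.05, against 0.415% and 12.9% of all tested genes. The p-values of the fit with 4b and 5b alone rest on a close pair of samples. The spread within that pair may in part be technical.

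**Figure D5:**
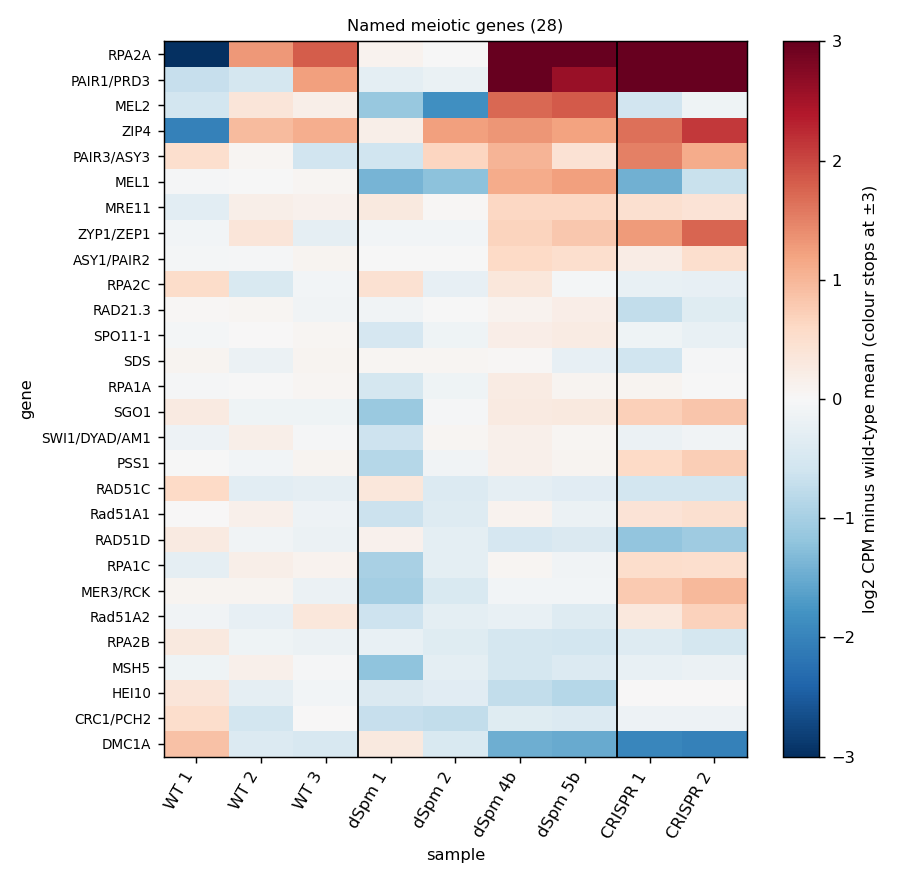
Heat map of the 28 named meiotic genes (rows, by log2 fold change in *osmads58* dSpm) in the 9 samples (columns), coloured by log2 CPM minus the wild-type mean, with the colour stopping at 3 in either direction. MEL1 and MEL2 are blue in *osmads58* dSpm 1 and 2 and red in 4b and 5b, RPA2A and PAIR1 are dark red in 4b, 5b and both *osmads58* CRISPR samples, and HEI10, MSH5, CRC1/PCH2 and RPA2B are blue in all 4 *osmads58* dSpm columns.

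Nuclear genes of the photosynthetic machinery leaned upward in *osmads58* dSpm, without a call. These genes encode subunits of photosystem I, photosystem II and the chloroplast ATP synthase, and 9 of them were listed in the supplementary tables. Of these, 8 were tested, and OsPsAG, another subunit of photosystem I, had no count in any sample. None was called by edgeR, against 1.45% of all tested genes, or by DESeq2, against 1340 of 33563 genes. By edgeR 1 of the 8 had an unadjusted p under 0.05, against 16.6% of all tested genes. The log2 fold change was above 0 for 7 of the 8, with a median of 0.35. The study chose its photosynthetic genes for RT-qPCR from those upregulated in *osmads58* dSpm in earlier work. The lean is thus not independent evidence. The sum over the 8 genes was 97.5 to 106 CPM in the wild type and 144, 107, 122 and 120 CPM in *osmads58* dSpm, against 152 and 125 CPM in *osmads58* CRISPR.

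PsbO, the protein that shields the oxygen-evolving site of photosystem II, had the clearest difference. It was at 26.3, 35.9 and 35.6 CPM in the wild type and 53.7, 41.4, 51.4 and 50.0 CPM in *osmads58* dSpm (log2 fold change 0.59, standard error 0.19, adjusted p = 0.158), so that the groups did not overlap. PsbO was the only 1 of the 8 genes with all *osmads58* dSpm samples above the wild type, 12.5% against 8.69% of all tested genes. AtpC, the gamma subunit of the ATP synthase, was at 5.30, 5.59 and 6.48 CPM in the wild type and 4.41, 8.88, 11.5 and 12.8 CPM in *osmads58* dSpm, with sample 1 below the wild type (log2 fold change 0.70, adjusted p = 0.328). AtpD, its delta subunit, was the gene with a negative log2 fold change (-0.29, adjusted p = 0.443). The photosystem I subunits PsaE, PsaF, PsaK and PsaN had log2 fold changes of 0.20, 0.21, 0.28 and 0.53 and PsbR of photosystem II 0.41, with adjusted p from 0.505 to 0.796. The study's PsbO primers identify the transcript with the lowest p.
OsPsbO forward: cacggcgaaccagtgcccga
OsPsbO reverse: ttcttggccacgccctccgc

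The summed levels of organelle transcripts overlapped between the groups. The summed level of plastid genes was 682, 377 and 389 CPM in the wild type and 816, 444, 327 and 430 CPM in *osmads58* dSpm, with sample 1 of each group the highest. That of mitochondrial genes was 45.7, 44.8 and 37.3 CPM in the wild type and 71.8, 39.9, 41.7 and 53.1 CPM in *osmads58* dSpm. The median log2 fold change was 0.12 over the plastid genes and 0.73 over the mitochondrial genes, against 0.06 for all tested genes. Of 78 plastid and 39 mitochondrial genes tested by edgeR 0 were called, against 1.45% of all tested genes. An unadjusted p under 0.05 was reached by 2 and 1 of them, against 16.6% of all tested genes. Of 99 and 52 tested by DESeq2 1 and 0 were called, against 1340 of 33563 genes. Wild type 1 and *osmads58* dSpm 1 also stood high for LOC_Os06g48970, the internal reference of the study's RT-qPCR, which was at 89.7, 55.2 and 55.4 CPM in the wild type and 66.6, 47.9, 47.2 and 45.2 CPM in *osmads58* dSpm (log2 fold change -0.37, standard error 0.21, adjusted p = 0.429).

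Called genes were spread over all 12 chromosomes, read from the gene identifiers. The share of tested genes called ranged from 0.985% on chromosome 12 to 1.92% on chromosome 11, around the 1.45% of all genes, and chromosome 5, which carries OsMADS58, had 1.82%. Of the 394 calls, 47 lay in 22 runs of neighbours among the tested genes with the same direction. The longest run held 4 upregulated genes on chromosome 3. LOC_Os03g55410 and LOC_Os03g55420, described above, were such neighbours by identifier, both upregulated. Whether calls cluster more than genes of like level do was not tested.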

How the data were processed

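RNA of 1 cm panicles was sequenced in 9 samples, 3 of the wild type, 4 of *osmads58* dSpm and 2 of *osmads58* CRISPR. The authors aligned reads with HISAT2 2.1.0 and quantified the MSU rice genes with StringTie 1.3.3b. The values they deposited are estimated counts per gene, and how StringTie's coverage was turned into counts is not given in the sources used here. In these files the counts were whole numbers and were used as deposited. One fit of all 9 samples in 3 groups was made with edgeR 4.0.16 in R 4.3.3 (TMM factors, filterByExpr by group, quasi-likelihood test, Benjamini-Hochberg adjustment over 27251 genes), checked on simulated counts. Log2 CPM for the plots used a prior count of 2. A count of 0 was taken to allow 3 counts, which covers counting error only. Alternatives included DESeq2 1.42.0, other factors and filters, sample subsets and leaving out each sample. Named were OsMADS58, called oxidation reduction genes with a group mean of at least 10 CPM, and examples of called ones with no count in a group. The study's named meiotic, photosystem and reference genes and examples with small p from the other lists were named too. Among called genes with a group mean of at least 10 CPM and without annotation, 2 with the largest log2 fold changes in each direction were added. The members and lists were chosen with earlier results of these data known. None of the identifiers matched the gene table at hand, so names and roles come from the study or textbooks.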

Additional observations from a re-analysis of the deposited data

Results flagged for a closer look

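In 62 values of the 4 *osmads58* dSpm samples, 4 had a sample whose gap to the nearest of the others exceeded Dixon's critical share of the range. The values were levels of named genes, sums and medians of the gene lists, and organelle sums, and chance alone flags about 1 in 20. *osmads58* dSpm 2 stood apart for LOC_Os01g56810, at 24.7 CPM against 7.23 to 7.89 CPM in the others, and for LOC_Os06g46799, at 13.6 CPM against 6.71 to 7.84 CPM. *osmads58* dSpm 1 stood apart for the reference gene LOC_Os06g48970, at 66.6 CPM against 45.2 to 47.9 CPM, and for PsbR, at 6.44 CPM against 3.64 to 3.74 CPM.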

How the results depend on the processing

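Calls over all genes, 394 in the reported fit (321 upward and 73 downward), were 1340 with DESeq2 (1005 and 335), 100 at an adjusted p under 0.01 (84 and 16), 236 with only the 7 samples compared (195 and 41), 110 with *osmads58* dSpm 1 and 2 only (95 and 15), 2491 with 4b and 5b only (1218 and 1273), and 129 downward with no fold change threshold. Chosen after seeing the data, averaging the close pairs gave 7 (6 and 1, with 1544 genes at an unadjusted p under 0.05), and leaving out wild type 1 with *osmads58* dSpm 1 gave 653 (511 and 142). Leaving out 1 sample gave 65 to 855 calls, 52 to 498 upward and 12 to 452 downward. Called oxidation reduction members, of 212, numbered 72 with DESeq2, 8 at an adjusted p under 0.01, 1 with close pairs averaged and 15 with the 7 samples. They numbered 5 with *osmads58* dSpm 1 and 2, 84 with 4b and 5b and 4 to 45 without 1 sample. Called cell cycle members, of 18, numbered 2 with DESeq2, 16 with 4b and 5b, 1 without both samples 1, and 0 to 3 without 1 sample. With 4b and 5b, 9 of 27 meiosis, 5 of 28 named meiotic and 1 of 8 photosystem genes were called. The share of all tested genes called was 9.28% with 4b and 5b and 0.415% with *osmads58* dSpm 1 and 2, and DESeq2 called 1340 of 33563. OsMADS58 passed with DESeq2 (log2 fold change -1.70).

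The replicate number as a block, in which 4b and 5b have no partner, gave 152 calls (135 and 17) and 7 oxidation reduction members. Same-numbered deviations correlated at 0.31 for sample 1 and 0.13 for sample 2 of wild type and *osmads58* dSpm, and the labels do not say that the numbers pair samples. Under the block the log2 fold change turned to -0.50 for LOC_Os12g37400, -1.28 for MEL1 (LOC_Os03g58600) and -1.38 for MEL2 (LOC_Os12g38460). With *osmads58* dSpm 1 and 2 only it turned to -0.0014 for LOC_Os12g37400, -0.11 for PsaF (LOC_Os03g56670), -1.33 for MEL1, -1.55 for MEL2, -0.60 for PAIR1 (LOC_Os03g01590), -1.09 for RPA2A (LOC_Os02g58220) and -0.044 for ASY1/PAIR2 (LOC_Os09g32930). PsaE (LOC_Os07g25430) ranged from -0.15 (without *osmads58* dSpm 1) to 0.34 when 1 sample was left out, and turned to -0.25 with 4b and 5b only and -0.080 without both samples 1, where PsbR (LOC_Os08g10020) turned to -0.20. MEL1 ranged from -0.038 (without *osmads58* dSpm 5b) to 0.72 when 1 sample was left out. None of these genes was called in the reported fit, though LOC_Os12g37400, MEL1, MEL2, PAIR1 and RPA2A were with 4b and 5b only and the first also without *osmads58* dSpm 1, and the causes were not tested. Of 950 values of the named genes under alternatives, 785 kept direction and call, 131 lost the call, 19 gained it and 15 turned.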
